A study of Mus musculus with 17 samples.

Results

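The rows of Satb1 and Prdm1, 2 of the 47643 rows of a table of estimated counts per gene, were chosen by symbol and followed through 17 libraries of regulatory T cells (Tregs) from mouse spleen. Satb1 was picked for its lower level in transgenic than in control libraries and Prdm1 for its lower level in knockout than in control libraries, in earlier results of the same table. Their levels and differences between groups are therefore given as a description, with no test. All mice were on the NOD background, a strain that develops autoimmune diabetes, and carried a Foxp3-GFP reporter. CD4+ T cells were enriched and GFP+ cells sorted, since Foxp3 is the transcription factor that defines Tregs. The 6 transgenic libraries (NOD-60A Tg+, a line with added Nfkbid) each came from 1 sample. The 5 knockout libraries (NOD-Nfkbid-KO, which lack Nfkbid) and the 6 control NOD libraries were pools of 2 samples each. The promoter that drives the transgene and the animals' ages are not given in the sources used here, and the same holds for whether 60A is 1 founder line. All libraries carry the same batch date. In the column headers, knockout library numbers form a run of their own, while transgenic numbers share a run with control libraries 1 and 2. What these numbers stand for is not given, and their part in the group differences was not tested.

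The protein product of Nfkbid, IkBNS, is a nuclear member of the IkB family and tunes transcription by NF-kB. SATB1 is a chromatin organiser that binds AT-rich DNA and loops loci together. It is abundant in thymocytes and resting T cells, Foxp3 represses it in Tregs, and Tregs that regain it lose suppressive function. Prdm1 encodes Blimp-1, a zinc finger repressor that drives plasma cell differentiation and marks the effector Tregs that make interleukin-10. Low Satb1 with high Prdm1 is thus the usual pattern of effector over resting Tregs.

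The Satb1 row (ENSMUSG00000023927) covers 19 merged exons and 19027 exonic bases of 14 transcripts on the minus strand of chromosome 17, from 51736187 to 51833290 in GRCm38. The Prdm1 row (ENSMUSG00000038151) covers 10 merged exons and 5579 exonic bases of 4 transcripts on the minus strand of chromosome 10, from 44437177 to 44528501. The 250 bases before a start site of each gene are shown because NF-kB, the factor that Nfkbid modulates, recognises short motifs in promoters. Both come from RefSeq on GRCm38.p6, at chr17:51833291-51833540 for the outermost Satb1 start and chr10:44458749-44458998 for Prdm1, minus strand, with capitals for matches, on either strand, to an NF-kB motif of GGG, any 5 bases and CC.
Satb1: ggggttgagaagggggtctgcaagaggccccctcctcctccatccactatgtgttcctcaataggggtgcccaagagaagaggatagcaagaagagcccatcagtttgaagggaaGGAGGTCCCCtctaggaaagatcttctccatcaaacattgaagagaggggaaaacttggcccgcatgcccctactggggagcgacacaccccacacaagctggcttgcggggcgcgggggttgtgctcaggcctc
Prdm1: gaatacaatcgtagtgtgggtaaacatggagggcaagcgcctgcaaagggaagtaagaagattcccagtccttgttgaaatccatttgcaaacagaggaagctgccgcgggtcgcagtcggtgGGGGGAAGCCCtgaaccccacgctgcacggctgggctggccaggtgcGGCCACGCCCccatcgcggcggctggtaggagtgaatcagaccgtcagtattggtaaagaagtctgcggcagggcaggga
The Satb1 window holds 1 match and the Prdm1 window 3, of which 2 overlap by all but 1 base. The other 4 Satb1 start sites of RefSeq have 2, 2, 1 and 0 matches. The Prdm1 window, the only 1 searched for that gene, lies inside the span of its row, not before the outer end. Any Prdm1 start farther out was not searched. Of 32851 promoter windows of this length, 45.8% hold at least 1 match, so a match is common. The Blimp-1 core GTGAAAG, found in 3.57% of windows, has no match on either strand in the windows of either gene. A match describes letters only.

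Library totals ran from 3133388 to 4726615 counts, and levels below are CPM, counts over the library total with TMM scaling, on which 3 counts equal 0.620 to 1.03 CPM. The Foxp3 row averaged 317 ± 21.9 CPM in transgenic (SD, n = 6), 311 ± 40.7 in knockout (SD, n = 5) and 344 ± 15.4 in control libraries (SD, n = 6). The Nfkbid row was low everywhere, with ranges of 6.99 to 10.99 CPM (transgenic), 2.22 to 8.26 CPM (knockout) and 3.07 to 5.38 CPM (control), so it did not set knockout apart from control, and the groups are those of the labels. Other T cell rows disagree with their names, since Foxp3 and Cd3d averaged 1134 and 2541 counts but Cd3e 2.0 and Trac 13.1. Some identifiers in this table may therefore not match the transcripts counted under them. Row names below are those of the table, and the Prdm1 row may hold reads of a nearby gene. The 6 NK rows summed to 433 to 805, 28.8 to 40.0 and 25.99 to 33.0 CPM in transgenic, knockout and control libraries, in that order, most of the transgenic sum in the Tyrobp row, a neighbour of Nfkbid on chromosome 7. The 9 myeloid rows, with Cst3, S100a8 and S100a9 at 0, summed to 51.6 to 65.1, 45.8 to 64.5 and 48.0 to 60.7 CPM. The 2 CD8 rows summed to 1.72 to 10.8, 1.63 to 17.8 and 5.59 to 8.78 CPM, and the 3 erythroid rows were at 0. The 8 T cell and Treg rows summed to 1410 to 1830, 1369 to 1938 and 1305 to 1422 CPM. The part of any of these in the Satb1 and Prdm1 differences was not tested.

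The resting-cell gene Satb1 stood lowest in transgenic libraries. It held 147, 164 and 184 CPM (lowest, median and highest of 6) in transgenic libraries, and 237, 173, 167, 213 and 185 CPM in knockout libraries 1 to 5, against 208, 234 and 248 CPM (lowest, median and highest of 6) in control libraries. All 6 transgenic libraries lay below the lowest control library, so these groups did not overlap. The share of all rows without overlap was not computed, so nothing is read from this. Of the 9986 rows tested, 2.17% were called lower in transgenic than in control libraries, a share from which nothing is read here because that contrast chose the row. The means were 163 ± 14.0 CPM in transgenic (SD, n = 6), 195 ± 29.1 CPM in knockout (SD, n = 5) and 231 ± 13.3 CPM in control libraries (SD, n = 6). The log2 fold change was -0.50 (SE 0.10) in transgenic against control, which is 1.41-fold lower.

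Knockout libraries lay between the other groups for Satb1 and overlapped both. In 3 of the 5 (libraries 2, 3 and 5) the level was below every control library, and in 3 of the 6 transgenic libraries it was below every knockout library. The log2 fold change was -0.24 (SE 0.10) in knockout against control and -0.26 (SE 0.10) in transgenic against knockout. The order of the means was transgenic, knockout, control from low to high, and neither pair of neighbours in it separated beyond the spread of its libraries. Knockout libraries 2, 3 and 5, with 13476 to 13802 rows above 0 against 15039 and 15931 in the other 2, had TMM factors of 0.865, 0.952 and 0.860, and transgenic library 1 had 0.865, while the other 13 ran from 0.978 to 1.09. Mitochondrial rows took 25.6%, 25.3% and 28.2% of the counts in knockout libraries 2, 3 and 5, against 22.0% and 22.5% in knockout libraries 1 and 4. They took 24.8% in transgenic library 1, the highest of its group, and their part in the Satb1 values was not tested. Without knockout libraries 2, 3 and 5, a choice made after seeing the data, the Satb1 log2 fold change was -0.04 in knockout against control and -0.45 in transgenic against knockout. In bulk RNA, fewer cells of a type and less RNA per cell cannot be told apart.

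The effector gene Prdm1 took another order, with knockout lowest and transgenic highest. Its row held 25.4, 43.1 and 52.6 CPM (lowest, median and highest of 6) in transgenic libraries, and 7.20, 2.59, 13.6, 8.89 and 3.58 CPM in knockout libraries 1 to 5, against 17.6, 25.9 and 35.9 CPM (lowest, median and highest of 6) in control libraries. Every knockout library was below every library of the other groups. How common such a gap is over all rows was not computed. Transgenic and control libraries overlapped through transgenic library 1, the lowest of its group, and the other 5 transgenic libraries stood above the highest control. The means were 42.1 ± 9.44 CPM in transgenic (SD, n = 6), 7.17 ± 4.42 CPM in knockout (SD, n = 5) and 25.7 ± 6.11 CPM in control libraries (SD, n = 6). The share of rows called lower in knockout than in control libraries was 1.01%, and 6.34% were called higher in transgenic than in knockout libraries. The first contrast chose the row and the second shares its knockout libraries, so neither share is read against it.

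The Prdm1 log2 fold change was -1.82 (SE 0.30) in knockout against control, 3.53-fold lower, and 2.53 (SE 0.30) in transgenic against knockout, 5.78-fold higher. In transgenic against control it was 0.71 (SE 0.25), 1.64-fold higher with overlapping groups, and 0.82 without transgenic library 1. The control libraries enter the first and last of these, so the values are not independent of each other. The lowest knockout library rested on 8 counts, whose exact Poisson 95% interval is 1.12 to 5.10 CPM, and the highest on 48 counts, with 10.03 to 18.04 CPM. These intervals cover counting error only. They do not overlap each other, and the coefficient of variation of Prdm1 was 61.7% over knockout libraries, against 22.4% in transgenic and 23.8% in control libraries. Satb1 varied less, by 8.57% in transgenic, 14.9% in knockout and 5.77% in control libraries. Transgenic libraries held 1 sample and the others pools of 2, and counting error weighs more at low counts. These spreads are therefore not fully comparable across groups. Without knockout libraries 2, 3 and 5 the Prdm1 log2 fold change was -1.68 in knockout against control and 2.40 in transgenic against knockout.

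**Figure D1:**
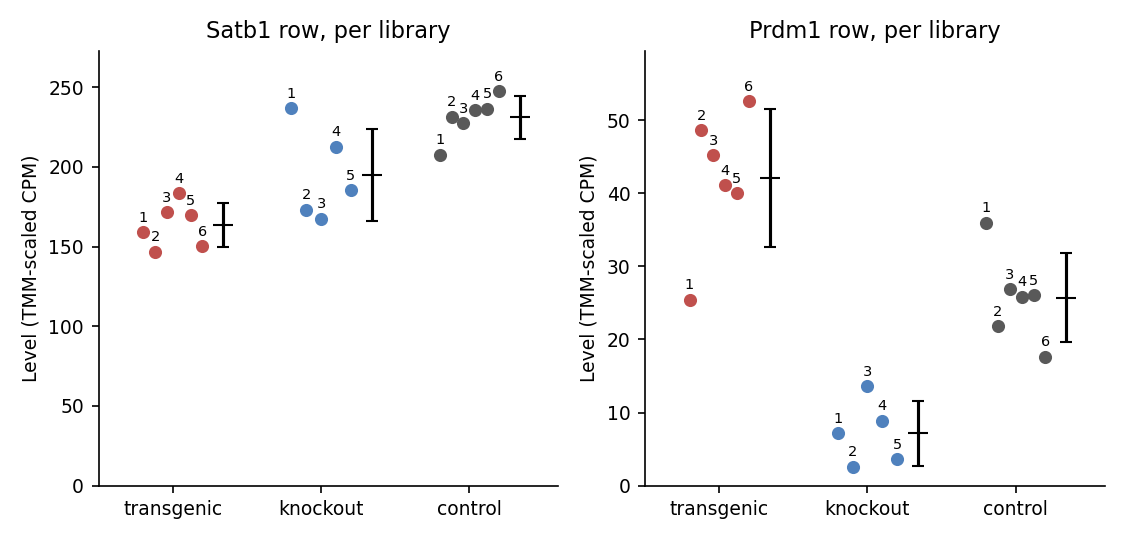
Level of the Satb1 row (left) and the Prdm1 row (right) in TMM-scaled CPM on linear axes from 0, one numbered point per library, with the mean and SD of each group beside the points. For Satb1 all 6 transgenic points lie below all 6 control points, and for Prdm1 all 5 knockout points lie below every other point.

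The pair thus moved in opposite directions in transgenic against control libraries, with log2 fold changes of -0.50 for Satb1 and 0.71 for Prdm1. In knockout against control both were negative, at -0.24 and -1.82. None of the 6 values changed sign under any of 29 other settings. Satb1 in knockout against control ranged from -0.33 to -0.03, the widest range relative to its size, while Prdm1 in the same comparison ranged from -2.18 to -1.62. Satb1 in transgenic against control stayed between -0.54 and -0.47, and Prdm1 there between 0.62 and 0.84.

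**Figure D2:**
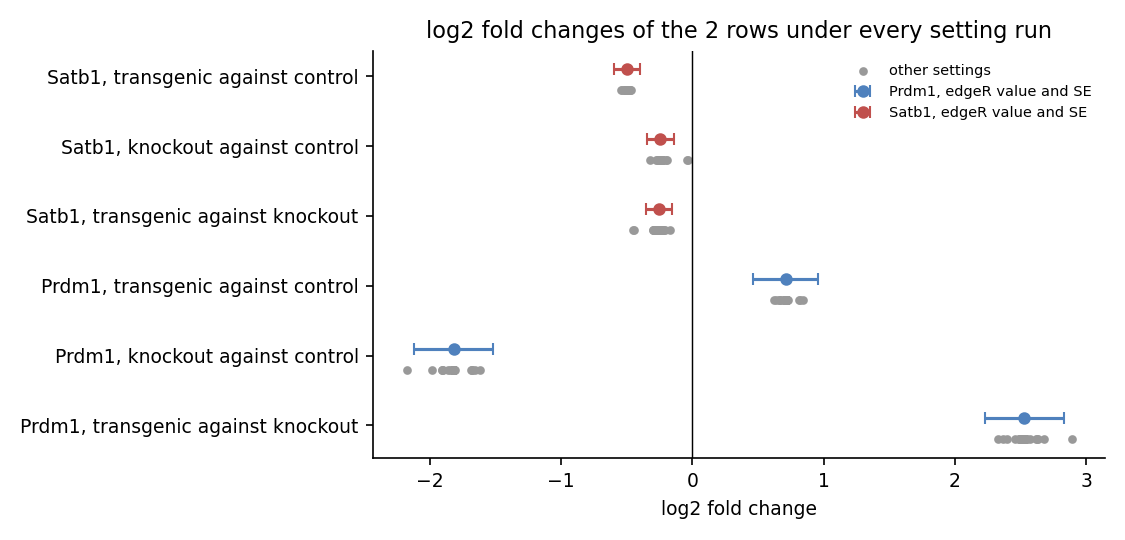
log2 fold change (horizontal axis) of the Satb1 and Prdm1 rows in each comparison, with the edgeR value and its SE as coloured points and bars and the values under 29 other settings as grey points below. The grey points of Satb1 near 0 in knockout against control are the fits without knockout libraries 2, 3 and 5, at -0.04 and -0.03.

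Whether libraries of 1 genotype with less Satb1 had more Prdm1 was asked within groups, a relation that did not choose the rows. Over the 6 transgenic libraries Pearson's r between the log2 levels (CPM + 1) was -0.20 (exact permutation p = 0.739, adjusted p = 0.739 over the 4 values computed). Spearman's rho there was -0.43 (exact permutation p = 0.419, adjusted p = 0.559). Over the 6 control libraries r was -0.90 (exact permutation p = 0.0333, adjusted p = 0.133) and rho -0.77 (exact permutation p = 0.103, adjusted p = 0.206), all two-sided. Neither group passed after adjustment. Without the 2 control libraries farthest from the Satb1 median, r was 0.03 over 4 libraries. Leaving those out narrows the range of Satb1, so this value cannot show whether the relation rests on them. With CPM over library totals, r in control libraries was -0.39. On that scale r in transgenic libraries was 0.46, of the opposite sign. No correlation was computed over the 5 knockout libraries, since at least 6 libraries were asked for.

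The 2 rows had different neighbours in the genome. Of genes within 250 kb, 10 had rows near Satb1 and 6 near Prdm1. All 5 rows that lie inside Satb1 on its strand are of the annotation's TEC type, single-exon transcripts that await experimental evidence. Near Prdm1 the closest protein-coding row, Atg5 of the autophagy machinery, lies 72886 bases away and averaged 0.94 counts. Gm35028, a lincRNA beside Prdm1 in the annotation, has no row of its own among those used here.

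Of the 5 rows inside Satb1, 1 was called in transgenic against control, against 7.4% of all rows called in either direction. These rows lie within the gene that this contrast picked, so nothing is read from that count. C230085N15Rik held 28.8 ± 4.69 CPM in transgenic (SD, n = 6), 38.4 ± 13.7 in knockout (SD, n = 5) and 45.6 ± 7.34 in control libraries (SD, n = 6). It was called lower in transgenic than in control libraries, with a log2 fold change of -0.66 (SE 0.20, edgeR adjusted p = 0.0449), a call that ended in 12 of 29 other settings. E430014B02Rik held 90.2 ± 21.4 CPM in transgenic, 79.1 ± 30.2 in knockout and 134 ± 18.7 in control libraries, with log2 fold changes of -0.57 (edgeR adjusted p = 0.0873) in transgenic and -0.76 (edgeR adjusted p = 0.0585) in knockout against control, neither called. For 5830444F18Rik and Gm37248 the values in transgenic against control were -0.83 and -0.75 (edgeR adjusted p = 0.25 and 0.274). The sources used here do not give the strand setting of the counting, and reads of unspliced Satb1 RNA and of these transcripts cannot be told apart in such rows.

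One row inside Satb1, Gm36931, went the other way among knockout libraries. It held 14.4 ± 12.2 CPM in transgenic (SD, n = 6), 41.6 ± 24.3 CPM in knockout (SD, n = 5) and 15.7 ± 4.61 CPM in control libraries (SD, n = 6). Its log2 fold change was -1.54 in transgenic against knockout (edgeR adjusted p = 0.0199), a call that ended in 7 of 29 other settings, among them the fit without knockout libraries 2, 3 and 5 (-0.59). Without transgenic library 1 it was -2.11. Gm36931 stood at 65.0, 29.5 and 70.6 CPM in knockout libraries 2, 3 and 5, against 18.4 and 24.5 CPM in knockout libraries 1 and 4. Transgenic library 1, with its low TMM factor, had 38.5 CPM against 4.27 to 12.7 CPM in the other 5 of its group. In E430014B02Rik the same libraries were low, at 49.5, 60.4 and 62.2 CPM in knockout libraries 2, 3 and 5 against 112 and 111 CPM in libraries 1 and 4, and 48.1 CPM in transgenic library 1. The Satb1 row itself was 173, 167 and 185 CPM in knockout libraries 2, 3 and 5, against 237 and 213 CPM in knockout libraries 1 and 4. Outside the gene, Gm37593, which starts 9571 bases upstream on the other strand, held 25.1 ± 8.81 CPM in transgenic, 39.6 ± 8.54 in knockout and 34.5 ± 4.38 in control libraries. It was called lower in transgenic than in knockout libraries (log2 fold change -0.66, edgeR adjusted p = 0.0361), a call that ended in 9 of 29 other settings. The part of library composition in these values was not tested.

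**Figure D3:**
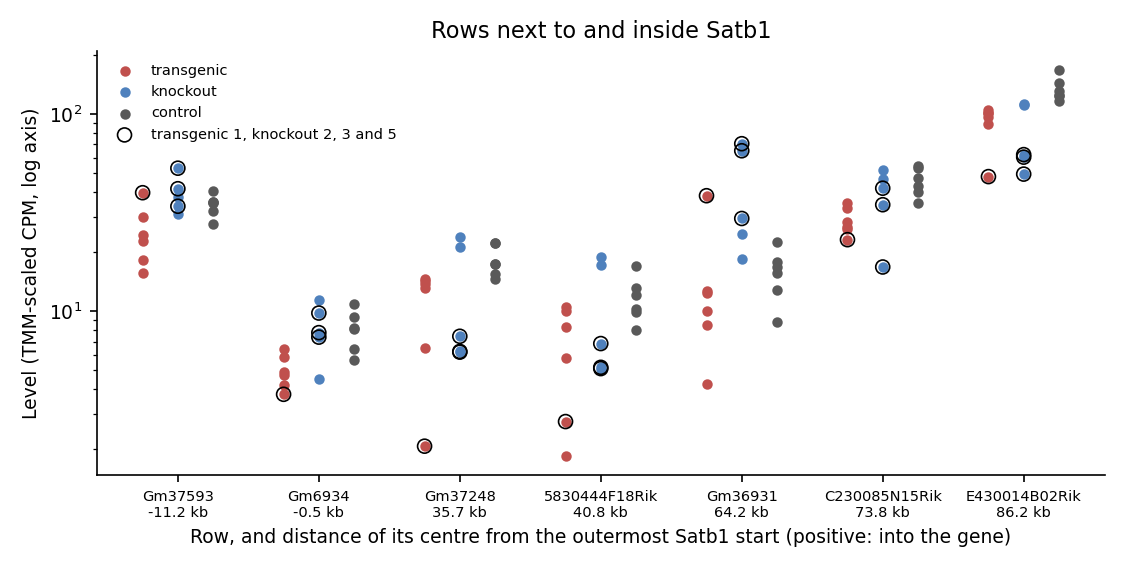
Level (TMM-scaled CPM, log axis) of the rows next to and inside Satb1 with at least 10 counts on average, placed by the distance of their centre from the outermost Satb1 start, one point per library and transgenic, knockout and control from left to right. Circled points are transgenic library 1 and knockout libraries 2, 3 and 5, which are high in Gm36931 and low in E430014B02Rik within their groups.

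How far each row could be counting something other than its gene was looked at by moving the exons of all rows around each locus along the chromosome and asking where mean counts followed protein-coding exons most closely across rows. Around Satb1 the Spearman correlation, a description across rows that share the same libraries, was 0.61 at 24 kb over the 237 rows within 6 Mb, against 0.50 with no displacement and 0.38 at the same distance in the other direction. Within 3 Mb of Satb1, over 57 rows, it was 0.50 at 28 kb, against 0.25 unmoved. Around Prdm1 it was 0.62 at 13 kb over 118 rows within 6 Mb, against 0.56 unmoved, and 0.67 at 17 kb over 67 rows within 3 Mb, against 0.64 unmoved. The optimum was thus flatter for Prdm1, and the 2 windows did not give the same distance for either gene.

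Moved by these distances, the Satb1 row would lie partly on its own exons. At 24 kb it overlaps 1191 bases of Satb1 exons, with 1905 bases on Gm6934, 1435 on C230085N15Rik and 2287 on Gm37266. At 28 kb it overlaps 670 bases of Satb1 and 2195 of Gm36931. The Prdm1 row would overlap its own exons by 62 bases at 13 kb and 694 bases at 17 kb, by none at 14 kb, and no other annotated gene at either distance. In the opposite direction it would reach Gm35028, with up to 1982 bases at -20 kb. Which transcript the Prdm1 row counts was not settled by these values, and its differences are those of the row.

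**Figure D4:**
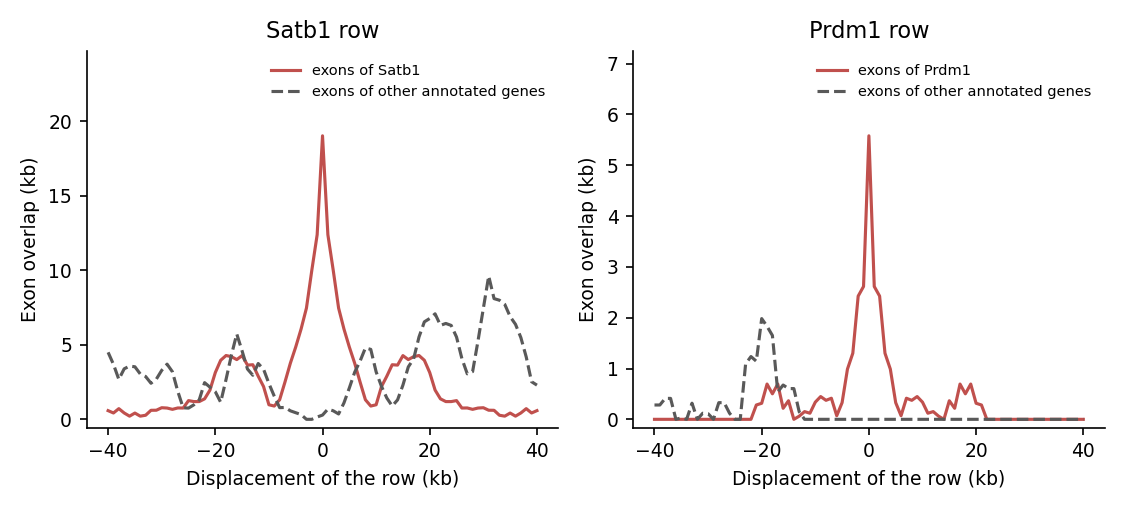
Exonic bases (kb) that the exons of the Satb1 row (left) and the Prdm1 row (right) would overlap if displaced along the chromosome by the distance on the horizontal axis (kb), for the gene's own exons and for exons of other annotated genes. For Prdm1 the overlap with other genes is 0 at every positive displacement drawn. For Satb1 it exceeds the overlap with the gene's own exons at displacements of 20 to 40 kb. It also does so at some shorter ones, such as 8 kb, and at some negative ones, such as -10 kb.

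By expression pattern, the named rows most like Satb1 over the 17 libraries were Bmp8a, St8sia6, Dnah8, Znrf3 and Add1, with Spearman's rho of 0.94, 0.87, 0.87, 0.87 and 0.87 among 5566 rows compared. Bmp8a, named after a bone morphogenetic protein, averaged 84.5 CPM in transgenic, 117 in knockout and 134 in control libraries, the order seen for Satb1. St8sia6, a sialyltransferase, averaged 160, 337 and 397 CPM in the same groups. The rows most opposed to Satb1 were Pip4p1, Igf1 and Insrr, with rho of -0.89, -0.88 and -0.88. Igf1, a growth factor, averaged 40.6 CPM in transgenic, 26.7 in knockout and 17.3 in control libraries.

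For Prdm1 the nearest rows were Ppp1r7, Plin3, Ltb4r2, Tlr13 and Usp16, with rho of 0.95, 0.95, 0.94, 0.93 and 0.92. Plin3, a lipid droplet coat protein, averaged 22.7 CPM in transgenic, 4.66 in knockout and 12.5 in control libraries, the order of the Prdm1 row. Ppp1r7, a regulatory subunit of protein phosphatase 1, kept the order over a narrower range, at 277, 215 and 243 CPM. Cd320, the transcobalamin receptor, Pabpc4 and Fbxl12 were most opposed, with rho of -0.93, -0.92 and -0.92. Cd320 averaged 106 CPM in transgenic, 190 in knockout and 135 in control libraries. These libraries share groups, depth and composition, and the rho values describe likeness over them. Rows were picked here by rho with Satb1 or Prdm1 over all libraries, so a shared or reversed order of group means largely follows from that choice.

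Rows named after other genes of the resting and effector Treg programmes gave a mixed picture beside the 2 rows. Whether each counts its own gene was not tested. Of 21 other resting Treg genes, all with a row, 13 were tested and 5 averaged under 1 count, 1 of them at 0 in all libraries. In transgenic against control, 0 were called higher and 1 lower by edgeR, against 5.23% of all rows called higher and 2.17% lower, and the median log2 fold change was -0.32, against -0.01 over all rows. At an unadjusted p under 0.05, 1 was higher and 4 lower. DESeq2 called 0 higher and 3 lower, and limma 0 and 1. The called gene was Il6ra, the interleukin-6 receptor chain, at 69.1 ± 14.8 CPM in transgenic (SD, n = 6) and 132 ± 9.47 in control libraries (SD, n = 6), a log2 fold change of -0.93 (SE 0.17, edgeR adjusted p = 0.000712) kept in all 29 other settings. Tcf7, which encodes the transcription factor TCF-1, had -0.59 (edgeR adjusted p = 0.0536).

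In knockout against control, 0 of the 13 resting genes were called in either direction, against 0.881% of all rows called higher and 1.01% lower. At an unadjusted p under 0.05, 0 were higher and 2 lower, DESeq2 called 0 and 1, and limma 0 and 0. The median was -0.23, against -0.02 over all rows, and Ccr7 had the smallest p (log2 fold change -2.64, edgeR adjusted p = 0.0584). In transgenic against knockout, 1 was higher and 1 lower, against 6.34% and 4.33% of all rows. Ccr7, the lymph node homing receptor, held 3.02 ± 1.68 CPM in transgenic and 0.422 ± 0.536 in knockout libraries, with a log2 fold change of 2.77 (edgeR adjusted p = 0.0155), at levels of a few counts. Bcl2, a survival factor, held 19.6 ± 2.47 CPM in transgenic and 29.7 ± 8.34 in knockout libraries, with -0.59 (edgeR adjusted p = 0.042), a call that ended in 17 of 29 other settings. Leaving out 1 library at a time, the Ccr7 value ran from 2.46 without knockout library 4 to 3.63 without knockout library 2. Its call ended in 2 of 27 other settings, the replicate block and the fit without knockout libraries 2, 3 and 5.

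Of 34 other effector Treg genes, all with a row, 11 were tested and 14 averaged under 1 count, 4 of them at 0 in all libraries. In transgenic against control, 0 were called higher by edgeR and 1 lower, against 5.23% and 2.17% of all rows, with a median log2 fold change of 0.14, against -0.01 over all rows. These counts leave out the untested members, and with no filter 2 were called higher. At an unadjusted p under 0.05, 2 were higher and 2 lower, DESeq2 called 1 and 1, and limma 0 and 1. The lower one was Il1rl1, the interleukin-33 receptor of tissue Tregs, at 160 ± 22.2 CPM in transgenic and 241 ± 42.7 in control libraries, a log2 fold change of -0.60 (SE 0.12, edgeR adjusted p = 0.00166) opposite in sign to Prdm1 and kept in all 29 other settings. In knockout against control the tested genes had 0 positive and 11 negative log2 fold changes with a median of -0.25, and 0 were called by edgeR, DESeq2 or limma, with 3 lower at an unadjusted p under 0.05. Over all rows, 0.881% were called higher and 1.01% lower, and the median was -0.02. The smallest p there was that of Il1rl1, at 188 ± 14.8 CPM in knockout and 241 ± 42.7 in control libraries, with a log2 fold change of -0.36 (edgeR adjusted p = 0.105).

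In transgenic against knockout, 2 of the 11 effector genes were called higher and 0 lower, against 6.34% and 4.33% of all rows. Of the 11, 9 were positive, and the median was 0.48, against -0.0005 over all rows. Irf4, the transcription factor that acts with Blimp-1 in effector Tregs, held 35.0 ± 4.60 CPM in transgenic and 22.1 ± 4.57 in knockout libraries, a log2 fold change of 0.66 (SE 0.17, edgeR adjusted p = 0.015). Ctla4, the inhibitory receptor, held 102 ± 34.6 CPM in transgenic and 60.8 ± 17.9 in knockout libraries, a log2 fold change of 0.75 (SE 0.21, edgeR adjusted p = 0.0212). The Irf4 call ended without knockout libraries 2, 3 and 5, and the Ctla4 call without knockout library 3 and in the fit of these 2 groups alone. Beside them Prdm1 had 2.53. These comparisons share libraries, and the lists were drawn up with earlier results of this table known.

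**Figure D5:**
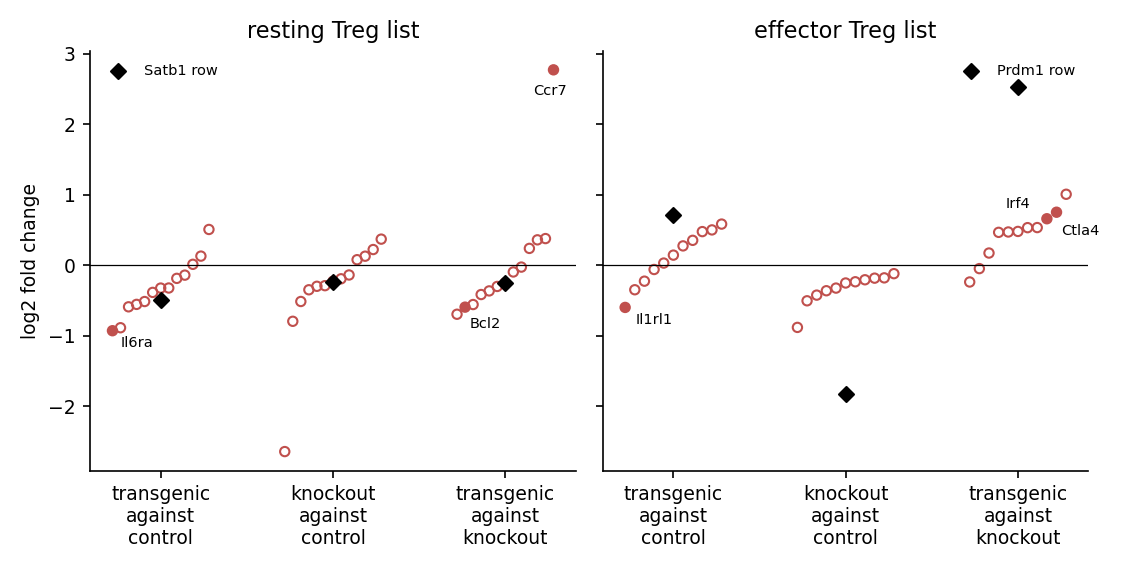
log2 fold change (vertical axis) of each tested member of the resting Treg list (left) and effector Treg list (right) in the 3 comparisons, sorted within a comparison, with filled points for rows called at adjusted p of 0.05 and diamonds for Satb1 and Prdm1. Prdm1 was chosen for its low value in knockout against control, and transgenic against knockout uses the same knockout libraries, so the place of its diamond in both is set by that choice.

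Among genes known as Blimp-1 targets in lymphocytes, 7 of 13 were tested, and the shares of all rows called in either direction were 7.4% in transgenic against control, 1.89% in knockout against control and 10.7% in transgenic against knockout. Ccr6, a chemokine receptor of effector cells, was the one called, at 58.0 ± 6.68 CPM in transgenic, 35.0 ± 4.31 in knockout and 55.6 ± 13.7 in control libraries. It was lower in knockout than in control libraries, with a log2 fold change of -0.67 (edgeR adjusted p = 0.0268), and higher in transgenic than in knockout libraries, with 0.73 (edgeR adjusted p = 0.00332). The first call ended in 9 of 29 other settings and the second in 1, both without knockout libraries 2, 3 and 5. In transgenic against control 0 of the 7 were called by edgeR, with 0 higher and 1 lower at an unadjusted p under 0.05, 1 call by DESeq2 and 0 by limma. Of 15 other members of the PRDM and SATB families, 7 were tested and 0 were called in any comparison by edgeR, DESeq2 or limma. At an unadjusted p under 0.05 those 7 gave 0, 2 and 3 in transgenic against control, knockout against control and transgenic against knockout. Prdm4, the other tested family member with the most counts, held 38.1 ± 4.31 CPM in transgenic, 38.5 ± 7.45 in knockout and 35.1 ± 3.52 in control libraries.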

How the data were processed

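Polyadenylated RNA of sorted spleen Tregs was sequenced with a KAPA mRNA kit. Per the series' design text and the submitters' processing notes, alignment used Bowtie2, the GRCm38 genome and transcripts of Ensembl 102. The authors deposited estimated counts per gene, labelled as merged RSEM counts, of which 5.87% are not whole. The strand setting and the use of molecular identifiers are not given in the sources used here. Counts were rounded and tested with edgeR 4.0.16 in R 4.3.3 (TMM factors, filterByExpr, quasi-likelihood F test, all 17 libraries in 1 fit, common biological coefficient of variation 0.241). P-values were adjusted by Benjamini-Hochberg over 9986 rows, with a threshold of 0.05. The edgeR step was tested on simulated data. SE was derived from the fold change and its F statistic. Symbols and coordinates came from GENCODE on GRCm38 for 47224 of 47643 rows. Exact permutation tests ran over all pairings with numpy 2.4.6, and the Poisson intervals used scipy 1.17.1.

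The members and lists were chosen with earlier results of these data known. Named rows are both members, the 5 highest and 3 lowest rows by Spearman's rho with each (at least 8 CPM on average, predicted, clone-named and receptor-segment rows left out), genes within 250 kb, and up to 4 called rows per list and comparison, or the smallest p. Some rows that the rule or the marker lists name are not reported here. The p-values reflect variation among these libraries only. No pair of libraries agreed within sampling noise. Normalization, filters, DESeq2 1.42.0, limma 3.58.1 with voom, 2-group fits, a replicate block, unrounded counts, leaving out mitochondrial rows and leaving out libraries were tried.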

Additional observations from a re-analysis of the deposited data

Results flagged for a closer look

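Of 27 groups of values examined for a library apart from the rest of its group, 2 held one, and chance gives about 1 in 20. Both are transgenic library 1 in rows inside Satb1. It had 48.1 CPM of E430014B02Rik, the lowest of its group, and 38.5 CPM of Gm36931, the highest of its group.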

How the results depend on the processing

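Counts below run in the order higher and lower where a pair is given. All 6 log2 fold changes of Satb1 and Prdm1 kept their sign under all 29 settings, and no scaling moved the median over all rows by 0.1. With upper quartile factors the resting list had 2 lower calls in transgenic against control and the Blimp-1 target list 1. With no filter, effector calls higher were 2 and resting calls lower 2 in transgenic against control, rows called in knockout against control were 223 and 348 (88 and 101 with the filter), resting calls lower there 2, and resting calls lower in transgenic against knockout 0. With a stricter filter, resting calls lower were 2 and Blimp-1 target calls 1 in transgenic against control, and resting calls higher in transgenic against knockout 0. With DESeq2, effector calls higher were 1, resting calls lower 3 and Blimp-1 target calls 1 in transgenic against control, and knockout against control gave 305 and 268 rows and 1 resting call lower. With limma, rows higher in knockout against control were 50, and resting calls lower in transgenic against knockout 0. With only the groups compared, transgenic against control gave 785 and 441 rows (522 and 217 with all libraries), 1 effector call higher, 4 resting calls lower and 1 Blimp-1 target call, knockout against control 34 and 42 rows and 0 Blimp-1 target calls, and transgenic against knockout 420 and 231 rows (633 and 432), 0 and 0 resting calls and 1 effector call higher. Replicate numbers did not pair the libraries (correlations of same-numbered deviations from -0.51 to 0.36, over 0.1 in 1 of 16 pairs), and the replicate block gave 23 and 44 rows and 0 chromatin partner calls in knockout against control, 0 and 0 resting calls and 214 lower rows in transgenic against knockout. In 2 of these 16 pairs a library correlated best with its own number. Without knockout libraries 2, 3 and 5, transgenic against control gave 879 and 469 rows, 4 effector calls higher, 3 resting calls lower and 1 Blimp-1 target call, knockout against control 10 and 33 rows, a Satb1 value of -0.040, and 0 chromatin partner and 0 Blimp-1 target calls, and transgenic against knockout 208 lower rows, a Satb1 value of -0.45, 0 resting calls higher, 1 effector call higher, 0 Blimp-1 target calls and 1 PRDM and SATB family call. Leaving out transgenic library 1 as well gave 962 and 668 rows, 1 and 4 resting calls, 3 effector calls higher, 1 Blimp-1 target and 1 family call in transgenic against control, 30 higher rows, a Satb1 value of -0.035 and 0 Blimp-1 target calls in knockout against control, and a Satb1 value of -0.45 and 1 family call in transgenic against knockout. Both were chosen after seeing the data. The correlation of Satb1 with Prdm1 on library totals was 0.46 in transgenic and -0.39 in control libraries, and 0.034 in control libraries without the 2 farthest from the Satb1 median. Leaving out 1 library at a time gave, in transgenic against control, 140 to 280 rows lower, 0 to 2 effector calls higher, 1 to 3 resting calls lower and 0 to 1 Blimp-1 target calls. In knockout against control it gave 29 (without knockout library 5) to 592 (without knockout library 4) rows higher, 55 (without control library 1) to 532 (without knockout library 4) lower, 0 to 2 resting and 0 to 1 effector calls lower, 0 to 2 chromatin partner calls and 0 to 1 Blimp-1 target calls. In transgenic against knockout it gave 262 (without transgenic library 6) to 826 (without transgenic library 1) rows lower, 2 to 4 effector calls higher, 0 to 3 resting calls lower, 1 to 2 Blimp-1 target calls and 0 to 2 family calls. The cause was not tested. Depth limits Prdm1 in knockout libraries, where 8 to 48 counts were read. Untested list members had few counts on average, 7.65 for Tnfrsf1b, against a 3-count level of 0.620 to 1.03 CPM. Some of them had unlike group means. In transgenic, knockout and control libraries Tnfrsf1b averaged 5.21, 0.621 and 0.623 CPM, Maf 3.24, 1.04 and 0.676, and Tigit 2.39, 0.370 and 0.393. The Il10 row went the other way in transgenic against control, at 0.102 and 1.05 CPM. Tnfrsf18, Tnfrsf4 and Batf averaged 0.06 counts each, beside 698 for Il1rl1. As for Cd3e and Trac, these names may not match the transcripts counted. The part of depth or of such a mismatch was not tested.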

Other observations

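Among 17 genes for chromatin partners of SATB1 or Blimp-1, 14 were tested. Calls were 2 in transgenic against control, 1 in knockout against control and 2 in transgenic against knockout, against 7.4%, 1.89% and 10.7% of all rows called in these comparisons, and they fell on Prmt5 and Chd4. Prmt5 encodes an arginine methyltransferase that Blimp-1 recruits. Its row held 455 ± 58.3 CPM in transgenic (SD, n = 6), 274 ± 26.6 in knockout (SD, n = 5) and 199 ± 14.8 in control libraries (SD, n = 6). The lowest transgenic library, at 394 CPM, lay above the highest knockout library, at 304 CPM. The lowest knockout library, at 235 CPM, lay above the highest control library, at 225 CPM. The share of all rows with such gaps was not computed. For Prmt5 the log2 fold change was 1.19 (SE 0.10, edgeR adjusted p = 3.52e-08) in transgenic against control, 0.73 (SE 0.10, edgeR adjusted p = 3.69e-05) in transgenic against knockout and 0.46 (SE 0.10, edgeR adjusted p = 0.0191) in knockout against control. The last call ended in 5 of 29 other settings, among them those without knockout library 2, without knockout library 3, without control library 3 and with the replicate block.

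Chd4, the remodeller ATPase of the NuRD complex that SATB1 binds, held 592 ± 61.6 CPM in transgenic, 407 ± 52.8 in knockout and 424 ± 27.4 in control libraries. In edgeR the log2 fold change of Chd4 was 0.48 (SE 0.10, edgeR adjusted p = 0.00208) in transgenic against control and 0.54 (SE 0.10, edgeR adjusted p = 0.00101) in transgenic against knockout, kept in all 29 other settings of each. The 14 partners had a median log2 fold change of -0.05 in transgenic against control, 0.03 in knockout against control and -0.06 in transgenic against knockout. Prmt5 and Chd4 are row names of the table, and whether those rows count their own gene was not tested.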
